A study of Mus musculus with 4 samples.

Results

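The antiviral type I interferon genes described here were Rsad2, Ifit1, Ifit2, Ifit3, Isg15, Isg20, Usp18, Oasl2, Mx1 and Zbp1. They were taken by symbol from the gene lists of the count matrices, and all 10 of 10 were found among 27998 genes. The study measured single CD45+ cells sorted from tumours transplanted into wt 129S6 mice. The 4 libraries came from mice given RMP1-14, which binds PD-1 (anti-PD-1), 9D9, which binds CTLA-4 (anti-CTLA-4), both antibodies (combination), or rat IgG2a (control), at 200 µg by intraperitoneal injection on days 3, 6 and 9 after transplant. Both antibodies block brakes on T cell activation. Tumours had been digested with collagenase at 37 °C before the sort, and how many mice stand behind each library is not stated in the labels. Each group had 1 library, so no difference below has a replicate check, and library, batch and antibody cannot be told apart. Intervals are exact 95% intervals and cover counting error only.

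Type I interferons bind the receptor IFNAR1/IFNAR2, whose kinases pass the signal to transcription factors that bind the interferon-stimulated response element in promoters of antiviral genes. Of the genes described here, Rsad2 encodes viperin, a radical SAM enzyme that makes a chain-terminating nucleotide. Ifit1, Ifit2 and Ifit3 encode tetratricopeptide proteins, of which Ifit1 binds viral RNA with an improper cap. Isg15 encodes a ubiquitin-like modifier, Usp18 the protease that removes it and that also dampens IFNAR signalling, and Isg20 an exonuclease. Oasl2 belongs to the oligoadenylate synthetase family, Mx1 belongs to the dynamin-like GTPases, and Zbp1 senses Z-form nucleic acids and can start necroptosis. In tumours, macrophages, neutrophils and dendritic cells are known to carry such programmes.

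RefSeq promoter windows on GRCm38.p6, 250 bases before to 50 after each start, were matched for 7 of the 10 genes; Usp18, Mx1 and Zbp1 had no entry. The core of the response element was searched on both strands as GAAA, any 2 bases and GAAA, which reads TTTC, any 2 bases and TTTC on the opposite strand. It lay in the windows of Rsad2, Ifit1, Ifit3 and Isg15, and in 3.44% of all 32851 promoter windows of 300 bases. These 4 windows are shown from 160 to 41 bases before the start, in the direction of transcription, because they hold every match found. Capitals mark the matches.
Rsad2: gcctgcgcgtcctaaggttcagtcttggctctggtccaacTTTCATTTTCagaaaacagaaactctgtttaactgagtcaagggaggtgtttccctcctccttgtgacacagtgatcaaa
Ifit1: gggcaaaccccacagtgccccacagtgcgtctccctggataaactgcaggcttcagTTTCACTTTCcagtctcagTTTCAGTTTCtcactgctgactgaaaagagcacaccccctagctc
Ifit3: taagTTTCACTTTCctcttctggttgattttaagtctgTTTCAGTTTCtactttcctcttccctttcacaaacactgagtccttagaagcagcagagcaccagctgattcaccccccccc
Isg15: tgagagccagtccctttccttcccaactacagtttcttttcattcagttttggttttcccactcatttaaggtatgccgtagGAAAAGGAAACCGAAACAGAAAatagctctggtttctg
The Rsad2 stretch is chr12:26456493-26456612 on the minus strand and holds 1 match. The Ifit1 stretch is chr19:34640729-34640848 and the Ifit3 stretch chr19:34583369-34583488, both on the plus strand, and each holds 2 separate matches. The Isg15 stretch is chr4:156200859-156200978 on the minus strand, and its 3 matches overlap one another in 1 run. Windows with 2 or more matches made up 0.225% of all windows. The letters were not found in the windows of Ifit2, Isg20 and Oasl2, which says nothing about binding there. A match is a description of the sequence.

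The 4 libraries held 3417 (anti-PD-1), 3336 (anti-CTLA-4), 3945 (combination) and 3793 (control) listed cells, with 11176246 to 13374294 unique molecular identifiers (UMIs, each a counted RNA molecule) per library. The median cell had 2824, 2991, 2549 and 2923 UMIs in the same order. Cells carry the authors' numbers for 19 clusters, and names ending in "-like" were given from marker genes and may differ from the authors' own. Macrophage/monocyte-like cells were in clusters 1, 2, 4, 7 and 15, and T cell-like cells in clusters 3, 6, 8, 9 and 10. Cluster 12 was neutrophil-like and cluster 5 NK cell-like. Clusters 11, 16 and 17 were like conventional, plasmacytoid and migratory dendritic cells, and cluster 18 like tumour cells or fibroblasts. Clusters 0, 13 and 14 are called by number. Library pairs shared 12 to 25 cell barcodes.

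Among the 19 clusters the 10 genes together were highest in neutrophil-like cluster 12, at 5405 CPM (UMIs per 1000000 UMIs of the same cells), and in macrophage/monocyte-like cluster 7, at 3324 CPM. In the other 17 clusters the sum lay between 84.1 CPM in cluster 14 and 825 CPM in cluster 0, with a median of 398 CPM. Clusters 7 and 12 held 7.58% of the cells and 38.2% of the UMIs of the 10 genes, against 6.86% of all UMIs. The authors made the clusters from the same expression data, and Rsad2, Ifit2, Ifit3, Ifit1 and Isg15 are among the 10 leading genes of cluster 7 beside Inhba and Nos2, so these levels describe the clusters and test nothing. Cluster 12 was shallow, with a median of 1387 UMIs per cell, against 2950 UMIs in cluster 7.

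**Figure D1:**
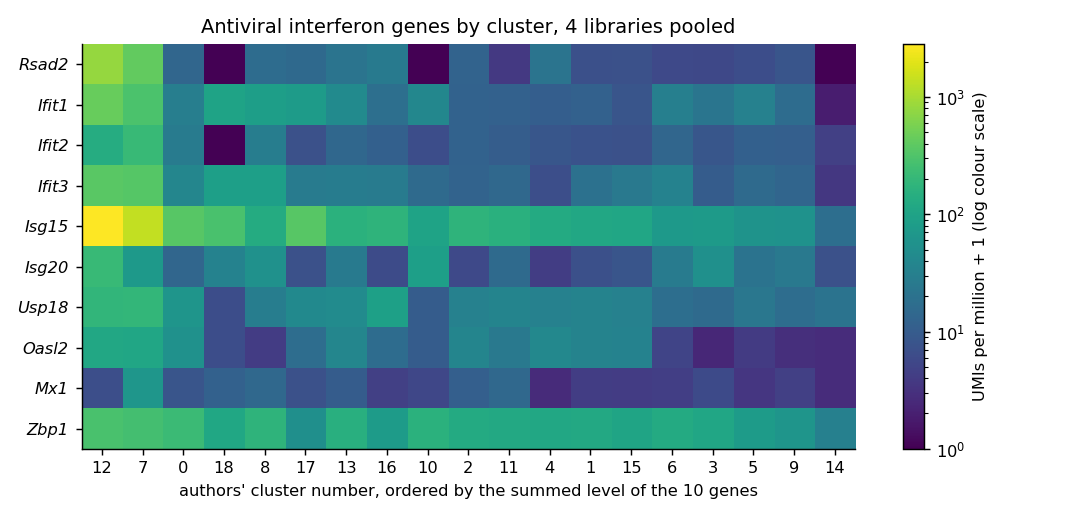
Each row is 1 of the 10 antiviral genes and each column 1 of the authors' 19 clusters, ordered by the summed level; colour is CPM plus 1 on a log scale, with the 4 libraries pooled. Clusters 12 and 7 are bright in most rows, Zbp1 and Isg15 are seen across most clusters, and Rsad2 is dark outside the first columns.

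Rsad2 was the most restricted. It reached 815 CPM in the neutrophil-like cluster and 420 CPM in cluster 7, and no other cluster passed 24.3 CPM. These 2 clusters held 78.2% of its 2009 UMIs. It had no UMI in the Foxp3-led T cell-like cluster 10, where 0 of 403 cells allows a share of up to 0.744% of cells with a UMI. Rsad2 also had none in clusters 14 and 18.

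The Ifit genes shared that peak. Ifit1 had 448 CPM in cluster 12 and 296 CPM in cluster 7, then 98.2 CPM in cluster 18 and, with overlapping intervals, 85.2 CPM in cluster 8, the T cell-like cluster led by Cd8a and Cd8b1. The cluster 18 value rests on 18 UMIs in 5 of 55 cells. Ifit3 had 372 CPM in cluster 12 and 347 CPM in cluster 7, with overlapping intervals, and 88.9 CPM in cluster 8. Ifit2 was the one that was higher in cluster 7, at 210 CPM, than in cluster 12, at 134 CPM. Ifit3 shares 4.71% of the read-length words at its 3′ end with its neighbour Ifit3b, so the counts of this pair are less certain.

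Isg15 and Usp18, the modifier and its protease, were detected more broadly. Isg15 had 2830 CPM in cluster 12, 1353 CPM in cluster 7 and 359 CPM in cluster 0, and 16.8 CPM in cluster 14. Usp18 had 193 CPM in cluster 7 and 187 CPM in cluster 12, followed by plasmacytoid dendritic cell-like cluster 16 at 90.3 CPM.

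Isg20, Oasl2, Mx1 and Zbp1 each had a layout of their own. Isg20 was at 209 CPM in cluster 12, and next came the Foxp3-led cluster 10 at 87.5 CPM, whose interval overlaps that of cluster 7 at 70.2 CPM. Oasl2 had 1.4 to 9.0 CPM in the T and NK cell-like clusters and 34.2 CPM in cluster 1, 54.0 CPM in cluster 0 and 109 CPM in cluster 7. Mx1 peaked in cluster 7 at 63.6 CPM and stayed at 5.8 CPM in cluster 12, where the other genes were high. Zbp1 was the most even, at 31.0 CPM in cluster 14 and between 50.9 and 287 CPM elsewhere. Across the 19 clusters, each gene's log2 level correlated with the mean of the other 9 at r between 0.58 for Isg20 and 0.91 for Rsad2, a description over clusters that share their libraries and differ in depth.

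With every cell thinned to 1000 UMIs, so that depth is equal, Rsad2 was seen in 36.0% of cluster 12 cells, 21.0% of cluster 7 cells and 0% to 1.46% of cells in the T and NK cell-like clusters. At least 1 of the 10 genes was seen in 81.2% of cluster 12 cells, 68.2% of cluster 7 cells and 9.09% of cluster 14 cells. Cluster 14 is the lowest of the 19 by these same values, no cell type known to lack the response was at hand, and the part of free RNA in these shares was not tested. The genes outside the 10 whose levels over the 19 clusters were most like their mean were Rhov (r = 0.91), Ifit3b (r = 0.90), Gm13822 (r = 0.90), Cmpk2 (r = 0.90) and Ddx60 (r = 0.88), of 5343 genes at 50 CPM or more in at least 1 cluster. Ifit3b is a further Ifit family gene, Cmpk2 a nucleotide kinase beside Rsad2 on chromosome 12, and Ddx60 a helicase. Gm13822 is annotated as antisense, and reads from such a gene are uncertain where counting by strand is not stated.

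All 15 macrophage/monocyte marker genes used were also detected in at least 10% of cluster 0 cells, which were kept apart. In the macrophage/monocyte-like class, without cluster 0, the 10 genes were higher with either antibody alone than with control IgG2a. Their sum was 878 CPM with anti-PD-1 alone, 970 CPM with anti-CTLA-4 alone and 582 CPM with the combination, against 579 CPM with control. The log2 ratio over control was 0.60 (0.54 to 0.66) for anti-PD-1 alone, 0.75 (0.68 to 0.81) for anti-CTLA-4 alone and 0.01 (-0.06 to 0.07) for the combination. These cells fell into clusters unevenly: cluster 1 held 13.6% to 29.6% of them in the antibody libraries, against 70.7% in the control library, and cluster 7 held 11.1% with anti-PD-1 alone, 19.99% with anti-CTLA-4 alone, and 17.3% with the combination, against 6.97% with control. When each cluster was given its pooled share of cells in every library, the log2 ratio was 0.14 for anti-PD-1 alone, -0.16 for anti-CTLA-4 alone and -0.90 for the combination. With those weights the anti-CTLA-4 ratio changed sign, and the combination, level with control as a class, was below it. Rsad2, Ifit1, Ifit2, Ifit3 and Isg15 lead cluster 7, so these weights cannot tell the mix of clusters from the level of the genes.

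All 10 genes lay above control with anti-PD-1, with a median log2 ratio of 0.62, where the median of all 10125 genes measured was -0.12. With pooled cluster shares 4 of them, Ifit1, Ifit2, Ifit3 and Isg20, lay below control. Ifit3 and Isg20 also lay below it without cluster 7, Ifit3 with cluster 0 added, and Isg20 after thinning to 1000 UMIs per cell. Of the 10, 5 (Rsad2, Ifit2, Isg15, Mx1 and Zbp1) were at least 1.5-fold higher and 0 lower. Of all genes, 8.41% were that much higher and 16.8% lower. With pooled shares 2, Mx1 and Zbp1, were that much higher, and the same 2 were with cluster 0 added. With anti-CTLA-4 all 10 were also above control, with a median of 0.59 against -0.16 for all genes, and with pooled cluster shares 9 of them, all but Rsad2, lay below it. Ifit1 and Isg20 also lay below it without cluster 7, and Usp18 after thinning. In this library 5 (Rsad2, Ifit2, Ifit3, Isg15 and Mx1) were at least 1.5-fold higher, where 8.91% of genes were, and 0 lower, where 19.5% were. With pooled shares 0 were higher and 2 lower, and with cluster 0 added 3 were higher and 0 lower. With the combination 4 of 10 lay above control, or 0 of 10 with pooled shares, and the median was -0.16, against -0.21 for all genes. There 1 gene was 1.5-fold higher and 1 lower, where 8.3% and 23.6% of genes were, and with pooled shares 0 were higher and 8 lower. Scaling by median of ratios instead puts 0 at -0.13, -0.16 and -0.21 on these scales. The 3 comparisons share the control library.

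Rsad2 was the gene that all 3 antibody libraries had at 1.5-fold or more above control. It had 49.8 CPM with anti-PD-1 alone, 107 CPM with anti-CTLA-4 alone and 61.9 CPM with the combination, against 29.8 CPM with control. All 3 antibody libraries were above the control, with log2 ratios of 0.74 (0.47 to 1.02), 1.84 (1.60 to 2.08) and 1.05 (0.81 to 1.30). With pooled cluster shares the ratios were 0.019, 0.43 and -0.42, so that no antibody library was then 1.5-fold above control. Without cluster 7 the combination's ratio was 0.36, and with cluster 0 added that of anti-PD-1 was 0.46, both under that fold. In the combination library 1 cell held 16.7% of the class's 396 Rsad2 UMIs.

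In this class total the 3 Ifit genes did not follow Rsad2 under the combination. Ifit1 had 51.3 CPM with anti-PD-1 alone, 52.1 CPM with anti-CTLA-4 alone and 32.8 CPM with the combination, against 44.8 CPM with control. Ifit2 had 38.4, 55.9 and 17.04 CPM in the same antibody libraries, against 24.3 CPM with control. Ifit3 had 55.0, 80.7 and 34.9 CPM, against 49.3 CPM with control. The combination library was the lowest of the 4 for each Ifit gene, with log2 ratios over control of -0.45, -0.51 and -0.50 for Ifit1, Ifit2 and Ifit3. With pooled cluster shares, and within cluster 7, Rsad2 and the 3 Ifit genes were all below control with the combination.

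Isg15 had 334 CPM with anti-PD-1 alone, 399 CPM with anti-CTLA-4 alone and 220 CPM with the combination, against 211 CPM with control, so that both single antibodies stood apart from the other 2 libraries. Usp18 had 56.4, 63.5 and 46.3 CPM, against 45.3 CPM with control. Isg20 had 14.9, 16.4 and 7.97 CPM, against 13.02 CPM with control, and with the combination it was the 1 gene at least 1.5-fold lower, at -0.70 (-1.23 to -0.19). Oasl2 had 58.2, 51.9 and 34.9 CPM, against 39.1 CPM with control. Zbp1 had 190 CPM with anti-PD-1 alone, the highest of the 4 libraries, and 134 and 121 CPM with anti-CTLA-4 alone and the combination, against 116 CPM with control.

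Mx1 had 29.8 CPM with anti-PD-1 alone, 10.0 CPM with anti-CTLA-4 alone and 5.47 CPM with the combination, against 6.14 CPM with control. The anti-PD-1 value, a log2 ratio of 2.27, rested on few cells: of 146 UMIs, 1 cell of cluster 7 held 52 and 1 cell of cluster 2 held 43. Without these 2 cells, an alternative chosen after seeing the data, the ratio was 0.76 (0.15 to 1.39). The first cell also held 67 UMIs of the other 9 genes, and the second held 8.

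**Figure D2:**
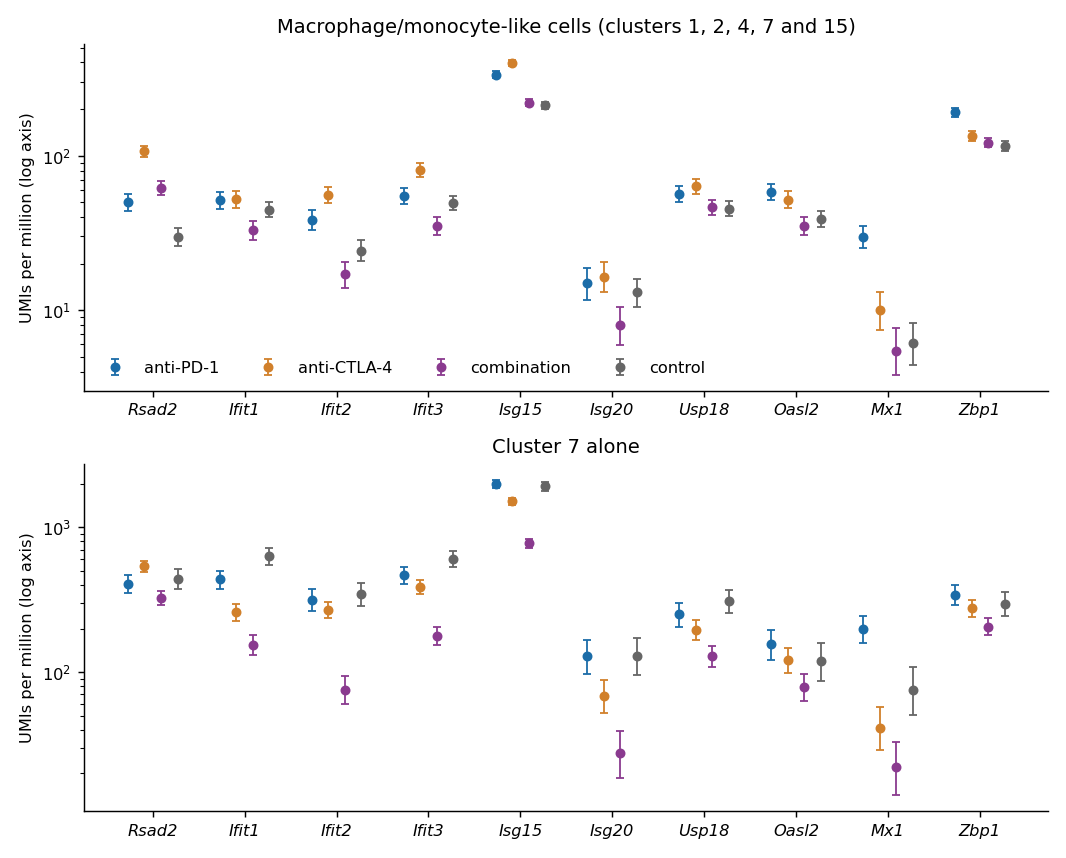
Points are CPM (log axis) of each gene in the anti-PD-1 alone, anti-CTLA-4 alone, combination and control libraries, with exact 95% Poisson bars, in all macrophage/monocyte-like cells (top) and in cluster 7 alone (bottom). In the top panel Rsad2 is lowest in control, and in the bottom panel all 10 genes are lowest with the combination.

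Set against each antibody alone, the combination library was lower. These class ratios were not reweighted by pooled cluster shares, so the uneven mix of clusters remains in them. Of the 10 genes, 8 were at least 1.5-fold lower than with anti-PD-1, where 12.5% of genes were, and 0 higher, where 6.96% were. Against anti-CTLA-4, 7 were lower, where 11.5% of genes were, and 0 higher, where 7.3% were. The median log2 ratio was -0.65 over anti-PD-1 and -0.82 over anti-CTLA-4, and all-gene medians were -0.08 and -0.04. Rsad2 was the exception over anti-PD-1 in the class total, at 0.31 (0.08 to 0.55), and was at -0.78 over anti-CTLA-4. Of the 396 Rsad2 UMIs of the combination, 1 cell held 66, which the interval does not take into account. Cluster 7 also held 17.3% of the class with the combination and 11.1% with anti-PD-1. Within cluster 7 all 10 genes, Rsad2 included, were lower with the combination than with anti-PD-1.

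Within cluster 7 the order of the libraries changed. The 10 genes summed to 4693 CPM with anti-PD-1 alone, 3671 CPM with anti-CTLA-4 alone and 1970 CPM with the combination, against 4874 CPM with control, over 139, 282, 323 and 106 cells. The log2 ratio was -0.05 (-0.15 to 0.04), -0.41 (-0.49 to -0.32) and -1.31 (-1.40 to -1.22) for anti-PD-1 alone, anti-CTLA-4 alone and the combination over control. With the combination 8 of 10 genes were at least 1.5-fold lower than control, where 26.8% of the 4990 genes measured were, and 0 were higher, where 15.8% were. With anti-CTLA-4, 5 were lower, where 22.4% of genes were, and 0 higher, where 15.6% were. With anti-PD-1, 1 gene, Mx1, was higher, where 14.7% were, and 0 were lower, where 15.4% were. That Mx1 value rests on few cells, as 1 cell held 52 of its 88 UMIs. Since these genes took part in forming the cluster, which cells enter it may differ between libraries.

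The spread of single genes within cluster 7 was wide. Ifit2 had 316 CPM with anti-PD-1 alone, 270 CPM with anti-CTLA-4 alone and 75.2 CPM with the combination, against 345 CPM with control, a log2 ratio of -2.19 (-2.61 to -1.79) for the combination. Ifit1 had 437, 259 and 154 CPM, against 630.5 CPM with control, and Ifit3 had 467, 388 and 178 CPM, against 606 CPM with control. Rsad2 differed less, at 408, 538 and 325 CPM, against 442 CPM with control, and its combination ratio was -0.45 (-0.72 to -0.17). Zbp1 likewise had a ratio of -0.53 for the combination.

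In the other macrophage/monocyte-like clusters the levels were much lower, and anti-PD-1 was the highest library in clusters 1, 2 and 4. Cluster 1 had 486, 393 and 291 CPM with anti-PD-1 alone, anti-CTLA-4 alone and the combination, against 322 CPM with control. Cluster 2 had 545, 482 and 272 CPM, against 410 CPM with control. The anti-PD-1 value there rests in part on few cells, as 1 cell held 64 of 425 Isg15 UMIs and 1 cell 43 of 49 Mx1 UMIs. Cluster 4 had 438, 394 and 321 CPM, against 289 CPM with control, which held 55 cells there. Cluster 0, with Gm9733 and Ms4a4c among its leading genes, had 919, 797 and 637 CPM, against 784 CPM with control.

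**Figure D3:**
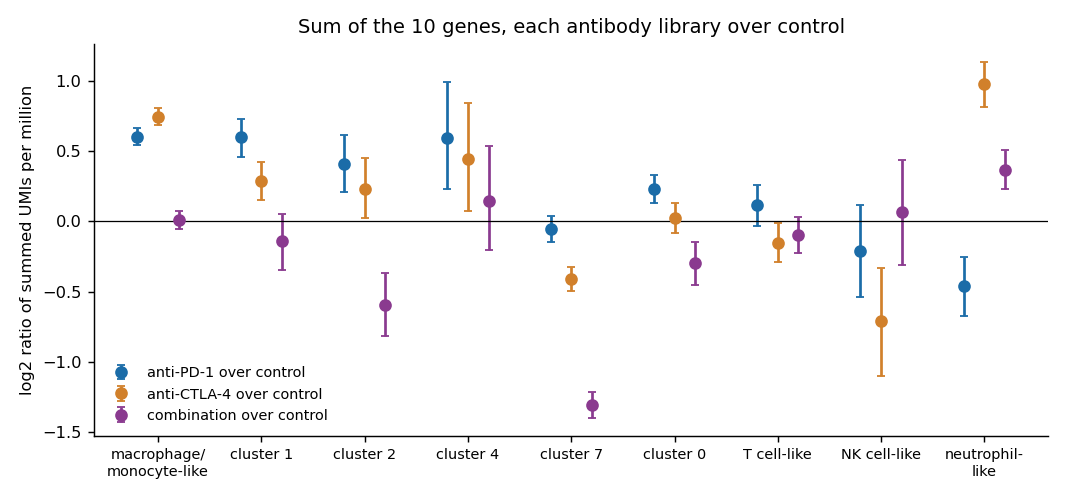
Points are log2 ratios of the summed CPM of the 10 genes, antibody library over control, for the macrophage/monocyte-like class, its clusters and other cells, with exact 95% intervals; 0 is no difference. Anti-PD-1 lies above 0 in clusters 1, 2, 4 and 0 and near 0 in cluster 7, and the combination is lowest in cluster 7, at -1.31.

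Counting genes per cell at 1000 UMIs gave the same order within cluster 7. Cells with 3 or more of the 10 genes made up 41.6% with anti-PD-1 alone, 30.4% with anti-CTLA-4 alone and 18.1% (14.0% to 22.8%) with the combination, against 52.8% (42.9% to 62.6%) with control. Cells with none made up 19.7%, 26.8% and 45.7%, against 18.9% with control. In the macrophage/monocyte-like clusters without cluster 7, cells with 3 or more made up 1.66%, 0.637% and 0.615%, against 0.780% with control, and no cell of 5059 had 5 or more.

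**Figure D4:**
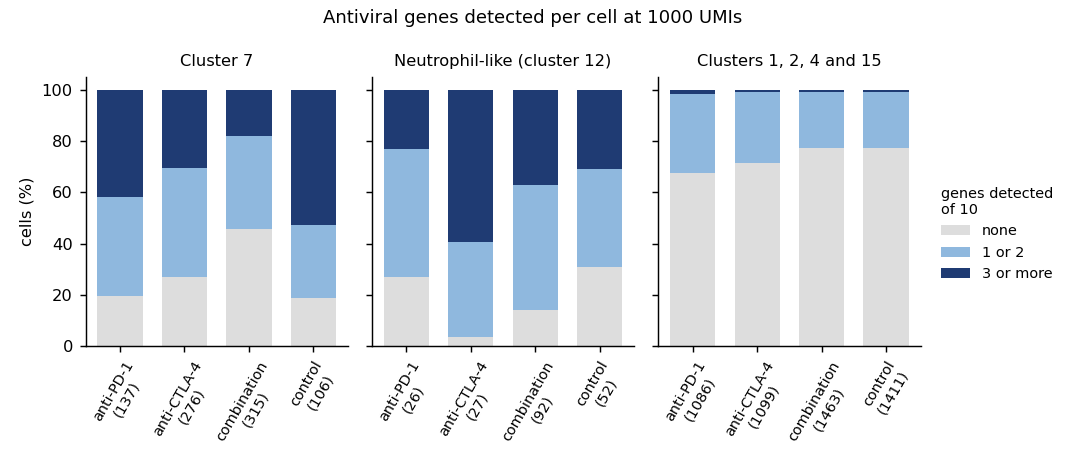
Stacked bars give the percent of cells with none, 1 or 2, or 3 or more of the 10 genes after thinning to 1000 UMIs, by library, with cell numbers in brackets. In cluster 7 the share with 3 or more is 18.1% with the combination and 52.8% with control, and outside cluster 7 the macrophage/monocyte-like cells rarely have 3.

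Rsad2 and the Ifit genes were found in the same cells. At 1000 UMIs, 107 of 225 macrophage/monocyte-like cells with an Rsad2 UMI (47.6%, 40.9% to 54.3%) also had a UMI of Ifit1, Ifit2 or Ifit3, against 5.26% of the 5668 cells without Rsad2. Of the 107 cells, 105 lay in cluster 7, where the shares were 60% of 175 cells and 24.9% of 659 cells. Without cluster 7 the share was 2 of 50 cells (4.0%, 0.488% to 13.7%), against 2.68%. With all UMIs, where depth is unequal, 35 Rsad2 cells outside cluster 7 had an Ifit UMI and 100 had none. Of the cells without Rsad2 there, 414 had one and 4657 had none. At 1000 UMIs, the Rsad2 cells within cluster 7 had Isg15 in 82.3%, against 44.0% of cells without Rsad2, and Usp18 in 30.3%, against 11.1%. Nos2 and Inhba, leading genes of the cluster that are no antiviral genes, were nearer, at 20.6% against 15.6% and 45.1% against 34.0%. In neutrophil-like cells 39 of 71 Rsad2 cells (54.9%) had an Ifit UMI, against 19.8% of the others.

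Co-detection was less frequent with anti-CTLA-4 and the combination than with control, with overlapping intervals. In the macrophage/monocyte-like class 26 of 41 Rsad2 cells (63.4%) had an Ifit UMI with anti-PD-1 alone, 35 of 80 (43.8%) with anti-CTLA-4 alone and 26 of 73 (35.6%, 24.7% to 47.7%) with the combination, against 20 of 31 (64.5%, 45.4% to 80.8%) with control. Of all cluster 7 cells, 43.8%, 31.9% and 20.6% had an Ifit UMI in the same order, against 52.8% with control. With all UMIs, 48 Rsad2 cells of the class had an Ifit UMI and 31 had none with anti-PD-1 alone. The combination had 61 and 67, and control 52 and 13. In UMI totals there were 0.345, 0.566 and 0.731 (0.640 to 0.833) Rsad2 UMIs per summed Ifit UMI with anti-PD-1 alone, anti-CTLA-4 alone and the combination, against 0.252 (0.215 to 0.294) with control. With the combination, 1 cell of cluster 7 held 66 of the class's 396 Rsad2 UMIs. The intervals treat UMIs of 1 cell as separate counts, so the distance between the combination and anti-CTLA-4 is uncertain. In cluster 7 alone the ratio was 0.335, 0.587 and 0.797 (0.691 to 0.919), against 0.279 (0.234 to 0.333) with control, and this cluster held most of the UMIs in the class ratio. Without cluster 7 the ratio was 0.377 (0.278 to 0.507), 0.467 (0.352 to 0.615) and 0.429 (0.291 to 0.621), against 0.180 (0.125 to 0.253) with control. There the 3 antibody libraries overlapped one another and lay above control, over clusters mixed unevenly between libraries. In cluster 1 the ratio was 0.145, 0.182 and 0.056, against 0.179 with control. In cluster 2 it was 0.143, 0.661 and 0.519, against 0.087 with control. In cluster 4 it was highest with anti-PD-1, at 2.33 (1.31 to 4.31) from 42 Rsad2 and 18 Ifit UMIs. Of these 42 UMIs, 1 cell held 28, which the interval does not take into account. The same cell stands behind the anti-PD-1 ratio without cluster 7, which had 63 Rsad2 UMIs. In neutrophil-like cells the ratio was 0.667, 0.737 and 0.949 (0.753 to 1.20), against 0.903 (0.719 to 1.13) with control, with overlapping intervals.

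**Figure D5:**
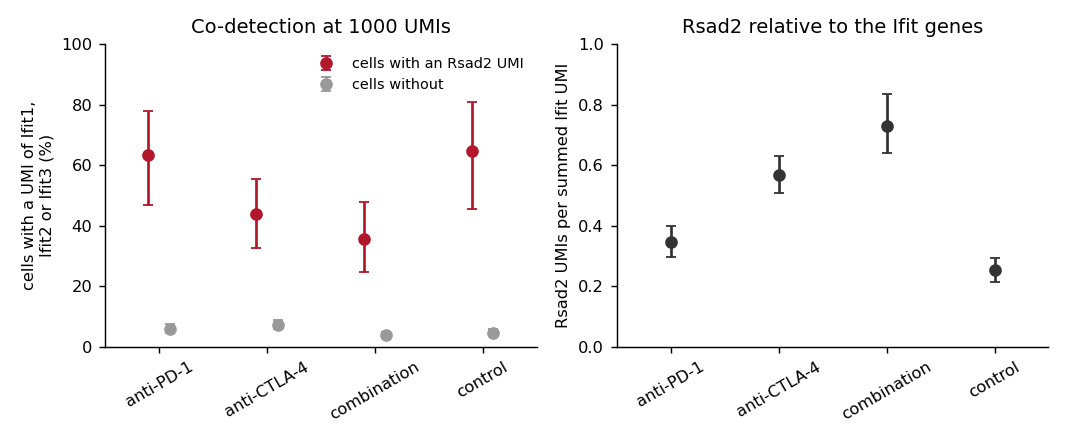
Left, percent of macrophage/monocyte-like cells with a UMI of Ifit1, Ifit2 or Ifit3 among cells with and without an Rsad2 UMI, at 1000 UMIs; right, Rsad2 UMIs per summed Ifit UMI in the same class with all UMIs; bars are exact 95% intervals. The right panel is highest with the combination, at 0.731, where 1 cell held 66 of 396 Rsad2 UMIs, and lowest with control, at 0.252.

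Neutrophil-like cells were few, at 38, 41 and 116 cells with anti-PD-1 alone, anti-CTLA-4 alone and the combination, against 53 with control. Their summed level was 3247, 8792 and 5773 CPM, against 4476 CPM with control, so the libraries differed in an order unlike that of cluster 7. The 10 cells with most of these UMIs held 36.2% to 71.6% of them in each library.

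T cell-like cells differed little in the sum, at 379, 315 and 327 CPM with anti-PD-1 alone, anti-CTLA-4 alone and the combination, against 350 CPM with control. Of the 9 genes with at least 20 UMIs, 1 was 1.5-fold higher with anti-PD-1, where 10% of genes were, and 1 was lower, where 9.93% were; these were Ifit2 and Isg20. With anti-CTLA-4 the counts were 0 higher and 2 lower (Isg20 and Mx1), where 10.6% and 13.7% of genes were. With the combination they were 1 higher (Ifit2) and 0 lower, where 9.24% and 11.4% were. Isg20 was lower in all 3 antibody libraries, at 33.7, 30.8 and 42.0 CPM, against 62.7 CPM with control, with log2 ratios of -0.89, -1.02 and -0.58. In the Foxp3-led cluster 10 it had 44.5, 64.2 and 57.7 CPM, from 7 to 11 UMIs each, against 126 CPM with control. That cluster, the highest of the T cell-like clusters for Isg20, held 82, 48 and 91 cells, against 182 with control. The part of this makeup in the T cell-like ratios was not tested. The Cd8a-led cluster 8 carried the highest sum of the T cell-like clusters, at 782, 727 and 597 CPM, against 529 CPM with control.

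Interferon transcripts themselves were rarely detected. Of 20 type I and III interferon genes in the matrices, Ifnb1 was the one with a UMI, with 21 UMIs in 8 cells, of which 6 cells and 19 UMIs were in cluster 7. Anti-PD-1 had 15 UMIs in 2 cells, anti-CTLA-4 5 UMIs in 5 cells and the combination 0 UMIs, which allows up to 0.254 CPM, against 1 UMI with control. The anti-PD-1 cell with 13 Ifnb1 UMIs also had 44 UMIs of Isg15 and 12 of Rsad2. Plasmacytoid dendritic cells are known as strong interferon producers, but 0 of 157 plasmacytoid dendritic cell-like cells had such a UMI, which allows a share of up to 1.91%.

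Other genes of the pathway were counted in the macrophage/monocyte-like class by the same fold. Here and in the paragraphs below, these class values were not reweighted by pooled cluster shares. Differences within clusters and the uneven mix of clusters cannot be told apart in them. Beside each count, the shares of all genes given above apply: 8.41%, 8.91% and 8.3% higher and 16.8%, 19.5% and 23.6% lower with anti-PD-1 alone, anti-CTLA-4 alone and the combination. Of 6 receptor and signalling genes (Ifnar1, Ifnar2, Jak1, Tyk2, Stat2 and Irf9), 0 were higher with anti-PD-1 alone, 1 with anti-CTLA-4 alone and 0 with the combination, and 0, 0 and 1 were lower. Their median log2 ratios were -0.02, -0.12 and -0.24. Tyk2, a kinase bound to IFNAR1, had 25.6 CPM with anti-CTLA-4 against 10.4 CPM with control, a log2 ratio of 1.30 (0.87 to 1.74). Irf9, a DNA-binding factor of the pathway, had 25.5 CPM with the combination against 43.7 CPM with control. Of 35 other interferon-induced antiviral genes, 3 were higher and 1 lower with anti-PD-1 alone, 2 higher and 0 lower with anti-CTLA-4 alone, and 1 higher and 7 lower with the combination, shares near or below those of all genes. The median log2 ratios were 0.21, 0.17 and -0.26. Ifit3b, at 4.5 CPM with the combination against 15.5 CPM with control, and Samd9l, at 8.3 CPM against 19.3 CPM, were among the lower ones, and Helz2 was the higher one, at 15.01 CPM against 5.85 CPM. Oas3, an oligoadenylate synthetase, had a log2 ratio of 0.69 with anti-PD-1 and 0.94 with anti-CTLA-4.

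Of 15 sensors, adaptors and regulatory factors measured, 0 passed the fold with anti-PD-1 alone, 1 was higher and 1 lower with anti-CTLA-4 alone, and 1 was higher and 3 lower with the combination, where 8.3% and 23.6% of all genes were. Mb21d1, which encodes the DNA sensor cGAS, had 3.91 CPM with the combination against 10.97 CPM with control, and Tmem173, which encodes its adaptor STING, had 51.8 CPM against 79.4 CPM. Of 5 genes of ISG15 conjugation, including Isg15 and Usp18, 1 was higher with each single antibody, and this was Isg15. With the combination 1 was lower, where 23.6% of all genes were; this was Uba7, the activating enzyme, at 12.5 CPM against 19.3 CPM with control.

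Genes known to be induced by interferon gamma differed more widely with the single antibodies. Of 13 measured, 9 were at least 1.5-fold higher with anti-PD-1 alone and 7 with anti-CTLA-4 alone, and 3 were higher and 1 lower with the combination, where 8.41%, 8.91% and 8.3% of all genes were higher and 23.6% lower with the combination, with median log2 ratios of 0.84, 0.63 and 0.39. Serpina3g, a serpin, had 270 CPM with anti-PD-1 against 82.8 CPM with control, and Socs1, a feedback inhibitor of cytokine signalling, had 122 CPM with anti-CTLA-4 against 45.3 CPM with control. Cxcl9, a T cell-attracting chemokine, was the lower one with the combination, at 105 CPM against 520 CPM with control. Ifngr1, a chain of the interferon gamma receptor, had 211, 214 and 203 CPM in the 3 antibody libraries, against 403 CPM with control. Many genes of these lists respond to both kinds of interferon. Which ligand acted, and what part the mix of clusters had in these class values, was not tested. Ifng itself had 267, 124 and 238 CPM in T cell-like cells with anti-PD-1 alone, anti-CTLA-4 alone and the combination, against 108 CPM with control.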

How the data were processed

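For each of 4 libraries the authors deposited unnormalized UMI counts, 1 per gene and barcode, and a table with a cluster number for each cell that passed their filter. Cell Ranger, Seurat and mm10 are named in the submitters' processing notes, without versions or filters. Of 14493 listed cells, 14491 had a matrix column and were used; of 127 barcodes not listed, 124 had over 3000 genes, and no further doublet call was made. Barcodes shared with another library numbered 109 among listed cells, and all were kept. Counts were summed per cluster or class and library and scaled to 1000000 UMIs (CPM). Intervals were exact Poisson, Clopper-Pearson and conditional binomial ones at 95%, and a count of 0 was read as up to 3 counts. Log2 ratios had 0.5 added to each count. A gene was measured at 20 or more UMIs over both libraries and called past 1.5-fold; the step was tested on simulated data. Shares of cells used cells thinned to 1000 UMIs, which left out 195 (anti-PD-1), 123 (anti-CTLA-4), 322 (combination) and 11 (control) cells. All 10 genes are named, and of other lists up to 4 genes with the largest ratio per comparison. The receptor and signalling list is given without 1 gene that is not reported here. Genes and lists were chosen with earlier results of these data known. Other scalings, cell sets, folds and depths were tried. Python 3.11.15, numpy 2.4.6, scipy 1.17.1, pandas 2.3.3 and matplotlib 3.10.9 were used.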

Additional observations from a re-analysis of the deposited data

Results flagged for a closer look

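The summed level of the 10 genes differed from control in opposite directions in different cells of the same library, and the difference between cell types was not tested. With anti-PD-1 the log2 ratio was 0.60 in cluster 1 and -0.46 in neutrophil-like cells. With anti-CTLA-4 it was 0.97 in neutrophil-like cells and -0.71 in NK cell-like cells. With the combination it was 0.37 in neutrophil-like cells and -1.31 in cluster 7. Neutrophil-like cells numbered 38 to 116 per library.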

How the results depend on the processing

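No paired analysis was possible because each group had 1 library, and no library could be left out. Log2 ratios over control in the macrophage/monocyte-like class changed most with the weights given to its clusters. With pooled cluster shares the sum was 0.14 for anti-PD-1 alone, -0.16 for anti-CTLA-4 alone and -0.90 for both, and the median of the 10 genes 0.036, -0.15 and -1.07. The same weights gave -0.42 for Ifit1, -0.036 for Ifit2, -0.33 for Ifit3, -0.13 for Isg20 and 0.019 for Rsad2 with anti-PD-1, and -0.42 for Rsad2 with the combination. With anti-CTLA-4 they gave -1.10 for Ifit1, -0.64 for Isg20, -0.17 for Ifit2, -0.49 for Ifit3, -0.085 for Isg15, -0.12 for Usp18, -0.030 for Oasl2, -0.44 for Mx1 and -0.042 for Zbp1. After thinning, the anti-CTLA-4 sum was 0.66 and the combination sum -0.16, and Usp18 with anti-CTLA-4 was -0.021. With cluster 0 added the sums were 0.53, 0.57 and -0.074. Without cluster 7 the anti-CTLA-4 sum was 0.34, with a median of 0.20, and the combination sum -0.16. Median-of-ratios scaling gave 0.73, 0.90 and 0.22, and a median of 0.74 for anti-PD-1. At 2-fold, 1 gene was higher with anti-PD-1 alone and 2 with anti-CTLA-4 alone; 0, 2 and 3 were lower with the combination than with control, anti-PD-1 alone and anti-CTLA-4 alone. Without cluster 7 the share of Rsad2 cells with an Ifit UMI was 0% with anti-PD-1 alone, 5.0% with anti-CTLA-4 alone, 0% with the combination and 16.7% with control, and 4.0% in all. The control share rests on 1 Rsad2 cell with an Ifit UMI and 5 without. In the whole class with all UMIs the share was 60% with anti-CTLA-4 and 59.5% in all. The causes were not tested. Cluster 7 is led by some of these same genes, so the weights cannot tell the mix of clusters from the level of the genes. A gene at 10 CPM rests on few counts.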
